A study of Mus musculus with 3 samples.

Results

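Deubiquitinases and proteasome subunits both act in the ubiquitin pathway, and the mRNAs of both carried listed m5C sites at every stage from the oocyte to the fertilized egg. The genes were chosen by symbol. Those starting with Usp and a digit, Otud or Uchl formed the deubiquitinase class, and those starting with Psma, Psmb, Psmc, Psmd, Psme, Psmf or Psmg formed the proteasome class. In all, 84 of the 8353 genes with a listed site were members, 51 deubiquitinase and 33 proteasome genes, and they held 452 of the 40298 distinct sites. Of these sites, 343 lay in deubiquitinase and 109 in proteasome mRNAs. Usp6nl, which encodes a GTPase-activating protein for Rab proteins, and Psmc3ip, which encodes a factor of meiotic recombination, match by name but belong to neither system, and they added 4 sites.

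Bisulfite converts C but spares 5-methylcytosine (m5C), and the m5C level of a position is the percentage of its reads that stayed C. The cells came from wild-type C57BL/6J mice, and 1 library was deposited for each of 3 stages, so no value has a replicate check. Oocytes at the germinal vesicle (GV) stage, full-sized and still arrested before meiotic maturation, were taken from ovaries, where pregnant mare serum gonadotrophin (PMSG, 10 IU) had acted for 48 h. Mature oocytes at metaphase II (MII) were taken from oviducts after PMSG (10 IU) and then human chorionic gonadotrophin (hCG, 5 IU) for 12 h. Embryos at the 1-cell stage were flushed from females mated with males of the same strain, after PMSG (5 IU) and then hCG (5 IU) for 24 h. All females were 7 to 8 weeks old by the labels, and the zona pellucida was removed at every stage. The series text gives about 200 pooled embryos for a library. The labels describe a different conversion step for oocytes and embryos, so that stage and library preparation cannot be told apart, and the study's methods give other hormone doses than the labels.

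Of 14 oocyte marker genes, 9 had a listed site in GV oocytes, 11 in MII oocytes and 13 in 1-cell embryos, with up to 16549 reads at a site of Gdf9, an oocyte growth factor. Of 12 marker genes of cumulus, granulosa and other somatic cells, 2 had a site, Amh and Cyp19a1, both in MII oocytes alone and with at most 96 reads. The lists hold only sites called methylated, with at least 20 reads, a level of at least 10% and at least 5 unconverted reads. A site missing from a list may be unmethylated, methylated below these limits or too thinly covered.

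Ubiquitin is attached to proteins as a signal, often for destruction. Deubiquitinases cut it off again, and the USP family, the OTU family and the UCH family are cysteine proteases that do so. The proteasome is a barrel of alpha and beta subunits that degrades tagged proteins, capped by a regulatory particle with a ring of ATPases that unfolds them or by activators of the Psme family. Oocytes store both mRNA and protein for the time after fertilization, when many maternal proteins are degraded. In mRNA, m5C is deposited by NSUN2, whose sites are called Type I, and by NSUN6, whose Type II sites lie in the motif CUCNA. As in the study, sites in CUCNA were classed as Type II and all remaining sites as Type I. The types thus rest on sequence, and the enzyme of a single site was not tested.

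The sites with the highest levels among those listed at every stage are shown first. Each line gives 25 bases of mRNA from 5′ to 3′ in the GRCm38 sequence, with the methylated C and the 4 bases after it in capitals.
Usp3 5′ UTR (chromosome 9, position 66592957, minus strand): ucugcccagugcCGGGUcagaagcg
Usp38 exon 1 (chromosome 8, position 81013872, minus strand): gagaaggaacuaCGGGAguaugucu
Usp54 exon 11 (chromosome 14, position 20577500, minus strand): aguggccguguuCGGAGaaaaggcg
Psme4 exon 27 (chromosome 11, position 30835344, plus strand): ucaggucagaaaCAAAGcucagcaa
Psme4 exon 11 (chromosome 11, position 30812067, plus strand): gaaguuugguauCAGGCagcaaaug
Psmd11 exon 2 (chromosome 11, position 80431755, plus strand): caggucaaagagCAGAGcauccuug
In all 6 the base after the C was A or G, which was not counted over all sites. At the second base after it 5 of the 6 had G, and a difference from other sites was not tested. Among Type I sites, G stood at this second base at 65.1% in the deubiquitinase class, 55.2% in the proteasome class and 63.9% in the whole lists.

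Sites in the motif CUCNA were few in both classes, and those listed at 2 stages or more all read CUCCA.
Usp10 exon 4 (chromosome 8, position 119941560, plus strand): uggacgugcuucCUCCAgucaugcc
Usp30 3′ UTR (chromosome 5, position 114123114, plus strand): ugcugugcuggaCUCCAcgacacag
Usp37 3′ UTR (chromosome 1, position 74436521, minus strand): cugaguuuuuccCUCCAucccucag
Usp47 exon 14 (chromosome 7, position 112083147, plus strand): cagaggcuacuaCUCCAgugcuuuu
Usp47 exon 20 (chromosome 7, position 112091425, plus strand): cuuaccugcagaCUCCAugaggaua
Psmd10 exon 3 (chromosome X, position 140952437, minus strand): ggcugcacuccaCUCCAuuaugcag
Psmf1 3′ UTR (chromosome 2, position 151718362, minus strand): gcaacaucagccCUCCAcccgaugc

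The sites below are single examples with a large rise, a large fall or the deepest coverage.
Usp34 exon 60 (chromosome 11, position 23452631, plus strand): ccucacagcaaaCAUCUuacugagu
Psme4 exon 1 (chromosome 11, position 30772147, plus strand): gcuggcacagauCAAGAgcaaccug
Psmb1 exon 6 (chromosome 17, position 15476117, minus strand): ucuucauuucugCAGCCgagaggga
Uchl1 exon 9 (chromosome 5, position 66686881, plus strand): acugagcgcgagCAGGGggaggucc

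The number of listed sites was highest in the embryo in both classes, while the reads per site were fewest there. Deubiquitinase mRNAs held 95 sites in 35 genes in GV oocytes, 154 sites in 43 genes in MII oocytes and 251 sites in 43 genes in 1-cell embryos. Proteasome mRNAs held 38 sites in 22 genes, 45 sites in 23 genes and 93 sites in 30 genes. As a share of the whole list, the deubiquitinase sites made up 0.597% (95% exact binomial interval 0.483 to 0.729), 0.744% (0.632 to 0.871) and 1.00% (0.884 to 1.14) in the order of the stages. The proteasome sites made up 0.239% (0.169 to 0.328), 0.217% (0.159 to 0.291) and 0.372% (0.300 to 0.456). The intervals cover counting error over sites only.

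The median coverage of a deubiquitinase site was 159, 116 and 62.0 reads in GV oocytes, MII oocytes and 1-cell embryos, and that of a proteasome site was 310, 275 and 80.0 reads. At sites listed at every stage, embryo coverage was a median 0.294 times that of GV oocytes (0.228 to 0.340, 53 sites) for deubiquitinases and 0.200 times (0.133 to 0.266, 23 sites) for proteasome genes, against 0.276 times over all 6145 such sites. Coverage in a bulk library follows both depth and RNA amount, and fewer cells and less RNA per cell cannot be told apart. A coverage minimum changed the order of the stages. With at least 100 reads per site, deubiquitinase mRNAs held 71, 85 and 72 sites from GV oocyte to embryo, and proteasome mRNAs held 34, 40 and 24.

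The classes also differed in how many sites a gene held. A deubiquitinase gene with a site had a mean of 2.71, 3.58 and 5.84 sites at the 3 stages, and a proteasome gene 1.73, 1.96 and 3.10. The mRNAs differ in length, with a median of 4604 nt against 1540 nt for the transcript with the longest coding sequence. Per 1000 C of these transcripts the order of the classes was the opposite, with 1.55, 2.51 and 4.09 sites for deubiquitinases and 2.59, 3.06 and 6.33 for proteasome genes, beside 2.11, 2.74 and 3.31 over all genes with a site. Genes without a listed site, 17 of 68 deubiquitinase and 17 of 50 proteasome genes, do not enter. A short mRNA thus counts only where it holds a site, which raises its density by construction. Proteasome sites were also the more deeply covered at each stage, and the parts of this selection and of coverage in these densities were not tested.

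**Figure D1:**
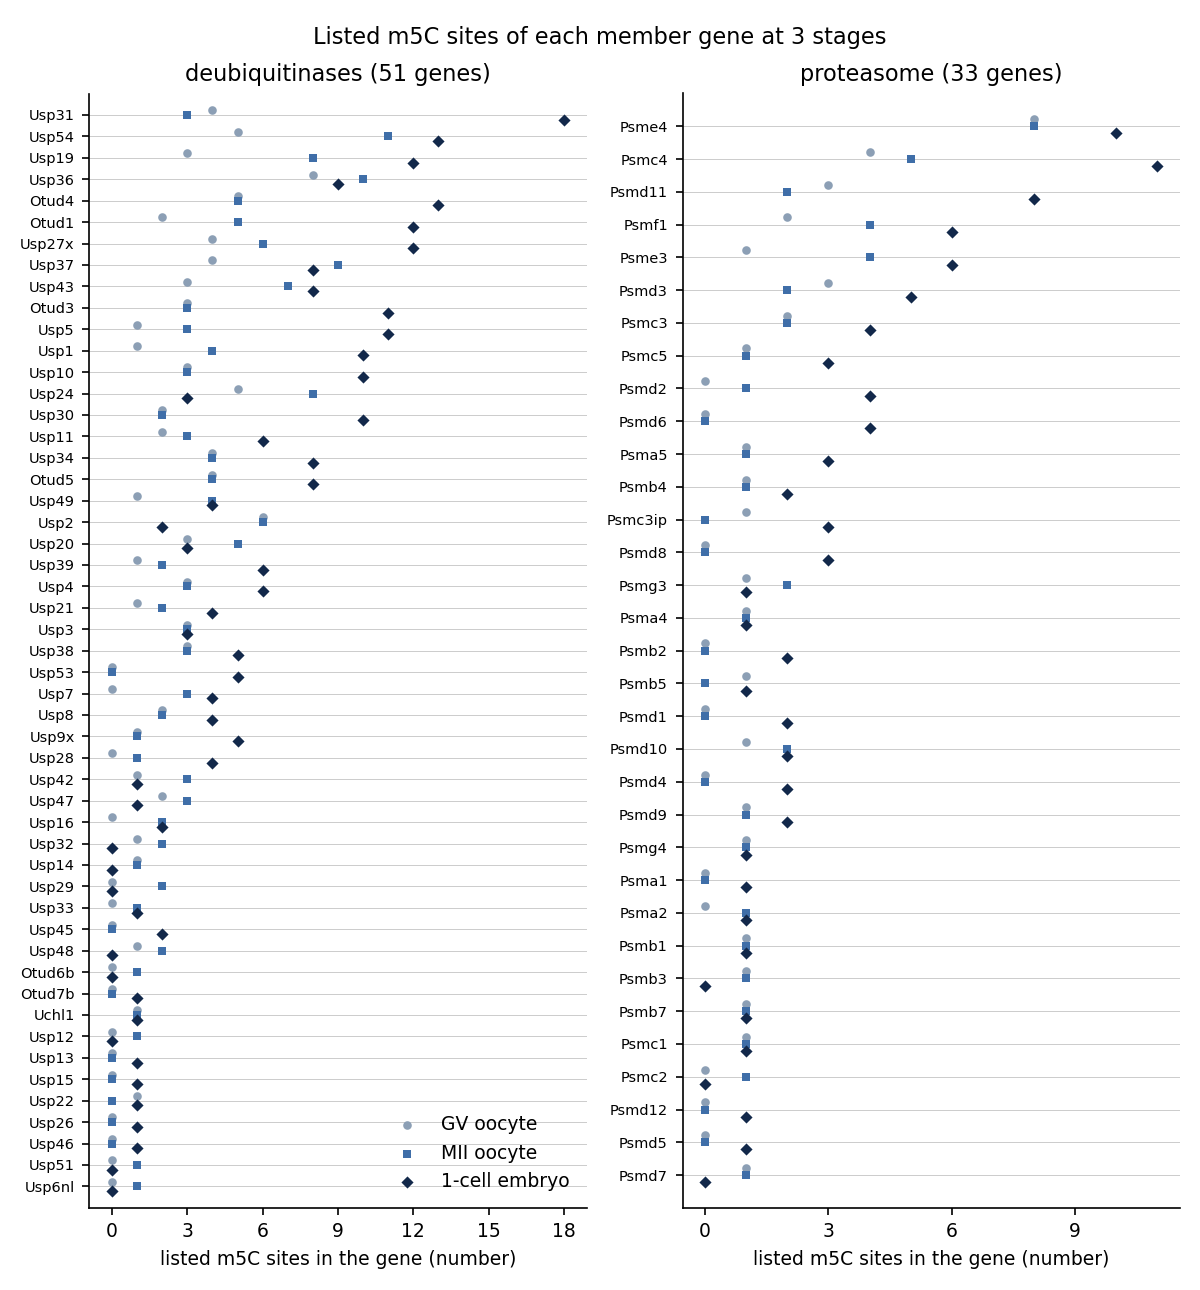
Number of listed m5C sites (x axis) in each of the 51 deubiquitinase genes (left) and 33 proteasome genes (right), with 1 marker per stage and 1 library per stage. Usp31 reached 18 sites in 1-cell embryos against 4 and 3 in the oocytes, while Psme4 held 8, 8 and 10.

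Sites were spread unevenly over the mRNAs. Usp31 had the most distinct sites, 22, followed by Usp54 with 21, Usp19, an enzyme anchored in the endoplasmic reticulum, with 17, Usp36, a nucleolar enzyme, with 16, and Otud4 with 14. Usp31 held 4, 3 and 18 sites over the stages and none of them was listed at every stage. Usp36 by contrast held 8, 10 and 9 sites, of which 4 were listed at every stage. In the proteasome class Psme4, which encodes the activator PA200, had 14 distinct sites, Psmc4 12, Psmd11 8, Psmf1 7 and Psme3 6. Psmc4 held 4 and 5 sites in the oocytes and 11 in the embryo, where 7 were in neither oocyte list, at 83 to 156 reads and levels of 10.9% to 40.0%. At the other end, 11 deubiquitinase and 10 proteasome genes had 1 distinct site, a count not made over all genes. Within a list, 12 of 35, 9 of 43 and 10 of 43 deubiquitinase genes held 1 site over the stages. In the proteasome class it was 16 of 22, 14 of 23 and 11 of 30 genes. Over all genes it was 2519 of 6108, 2374 of 6736 and 1900 of 6407.

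A site at every stage was found in 31 of the 51 deubiquitinase genes. These were Otud1, Otud3, Otud4, Otud5, Uchl1, Usp1, Usp2, Usp3, Usp4, Usp5, Usp8, Usp9x, Usp10, Usp11, Usp19, Usp20, Usp21, Usp24, Usp27x, Usp30, Usp31, Usp34, Usp36, Usp37, Usp38, Usp39, Usp42, Usp43, Usp47, Usp49 and Usp54. In the proteasome class 18 of 33 genes had one, namely Psma4, Psma5, Psmb1, Psmb4, Psmb7, Psmc1, Psmc3, Psmc4, Psmc5, Psmd3, Psmd9, Psmd10, Psmd11, Psme3, Psme4, Psmf1, Psmg3 and Psmg4. The same position was listed at every stage in 25 and 13 of them, and in 3271 of all 8353 genes. How many of all genes had a site at every stage, at any position, was not counted. In the embryo alone, 7 deubiquitinase genes (Otud7b, Usp13, Usp15, Usp26, Usp45, Usp46 and Usp53) and 8 proteasome genes (Psma1, Psmb2, Psmd1, Psmd4, Psmd5, Psmd6, Psmd8 and Psmd12) had sites, which is 13.7% and 24.2% of the class against 13.6% of all 8353 genes. Of the annotated protein-coding genes that the symbols cover, 17 of 68 deubiquitinase and 17 of 50 proteasome genes had no site in any list, which is 25% and 34.0% against 63.5% of all 22028 protein-coding genes. Among them were Uchl3 and Uchl5, the immunoproteasome subunits Psmb8, Psmb9 and Psmb10, the activators Psme1 and Psme2, and Psmd14, the deubiquitinase of the regulatory particle.

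The median levels of the classes had overlapping intervals at every stage, and so had the stages within each class. The median level of deubiquitinase sites was 23.6% (95% order-statistic interval over sites 17 to 28.6) in GV oocytes, 18.5% (16.6 to 21.9) in MII oocytes and 20.7% (18.3 to 23.3) in 1-cell embryos. That of proteasome sites was 18.1% (14.2 to 25), 18.5% (15.7 to 24.3) and 18.2% (15.2 to 23.1). The median of the whole lists was 19.5%, 19.8% and 23.8%. At 50 reads or more, where the limit on unconverted reads no longer acts, deubiquitinase medians were 20.3%, 18.3% and 17.1%, and proteasome medians were 18.1%, 18.5% and 15.1%, beside 18.3%, 18.6% and 18.2% for all sites. Sites with at least 50% unconverted reads numbered 16, 22 and 41 in deubiquitinase mRNAs and 5, 10 and 15 in proteasome mRNAs. These were 16.8%, 14.3% and 16.3% of the deubiquitinase sites and 13.2%, 22.2% and 16.1% of the proteasome sites. Over all sites the shares were 11.0%, 11.9% and 16.7%. Among member sites a level of 100% was found in the embryo alone, at 5 deubiquitinase and 2 proteasome sites. The whole lists held 2, 8 and 551 such sites over the stages.

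**Figure D2:**
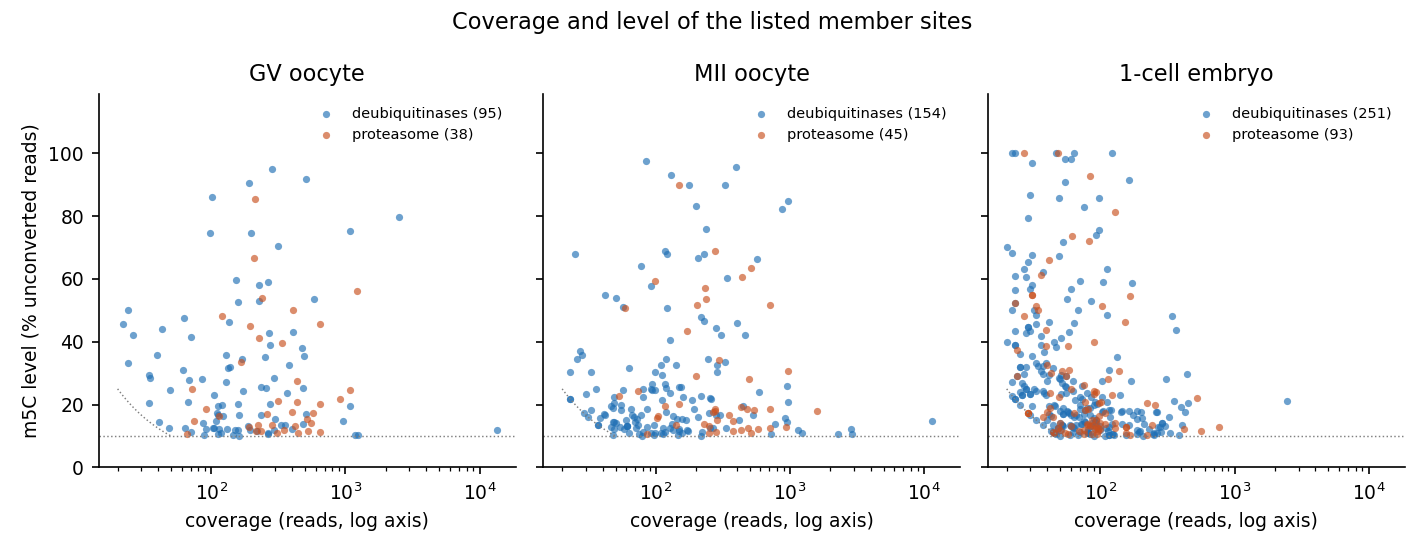
m5C level in percent (y axis) against coverage in reads on a log axis (x axis) for every listed member site, with 1 panel per stage and 1 point per site. Dotted lines mark the limits of the lists, 10% and 5 unconverted reads, and the 251 deubiquitinase sites of 1-cell embryos lie at lower coverage (median 62.0 reads) than the 95 of GV oocytes (median 159 reads).

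At sites common to a pair of libraries, levels were on balance higher at the later stage in both classes. The larger step lay between MII oocytes and the embryo, though the steps were closer at 50 reads or more. From GV to MII oocytes the median difference was 5.80 percentage points (3.71 to 8.53) over 82 deubiquitinase sites and 4.11 points (0.423 to 6.12) over 34 proteasome sites, against 4.87 points over all 12954 shared sites. From MII oocytes to the embryo it was 8.78 points (6.74 to 13.1, 72 sites) and 9.88 points (2.41 to 22.9, 30 sites), against 12.7 points over 8015 sites. From GV oocytes to the embryo it was 16.1 points (11.0 to 24.5, 56 sites) and 19.8 points (6.04 to 32.2, 26 sites), against 19.2 points over 6478 sites. With at least 50 reads in both libraries the steps were 6.16 and then 7.04 points for deubiquitinases and 4.11 and then 5.00 points for proteasome genes. With 1 value per gene they were 5.74 and then 8.87 points, and 4.61 and then 5.00 points. The proteasome values depended on coverage. At sites with at least 50 reads in both libraries they were 5.00 points from MII oocytes and 10.3 points from GV oocytes to the embryo, below the 7.04 and 15.7 points of deubiquitinases, so that the order of the classes turned, and with 1 value per gene the step from MII oocytes was 5.00 against 8.87 points. A site must reach 10% in both lists to be compared, so that a site that falls below this is not seen.

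Each shared site was tested by Fisher's exact test of its unconverted and converted reads, two-sided and adjusted over all shared sites of the pair. The test compares the reads of 2 libraries, not the conditions. Between GV and MII oocytes, 17 of 82 deubiquitinase and 7 of 34 proteasome sites were called higher in MII oocytes (20.7% and 20.6%), and 19.6% of all shared sites were. None of either class was called lower, beside 0.965% of all sites. Between MII oocytes and the embryo 32 of 72 and 14 of 30 sites were called higher in the embryo, 44.4% and 46.7% against 51.3% of all sites. Between GV oocytes and the embryo it was 36 of 56 and 17 of 26 sites, 64.3% and 65.4% against 66.1% of all sites. The shares called higher thus lay near that of all sites in both classes.

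Calls of a lower level in the embryo fell in the proteasome class. From MII oocytes to the embryo 4 of 30 proteasome sites were called lower, which is 13.3%, against 2.45% of all shared sites and 0 of 72 deubiquitinase sites. From GV oocytes it was 3 of 26, which is 11.5%, against 1.05% of all and 0 of 56. The comparisons share the embryo library and the sites overlap, so these counts are not independent, and the difference between the classes was not tested. The read counts come without molecular identifiers, so that several reads may stem from 1 molecule. With all reads divided by 5, 0 of the deubiquitinase and 0 of the proteasome sites were called between the oocytes, 3 and 1 were called higher from MII oocytes to the embryo and 6 and 5 from GV oocytes, and 1 proteasome site was called lower, Psmb1 against GV oocytes. The sites still called higher in that comparison lay in Otud1, Uchl1, Usp19, Usp34, Usp36, Usp38, Psmd9, Psmd11, Psmf1 and, with 2 sites, Psme4.

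**Figure D3:**
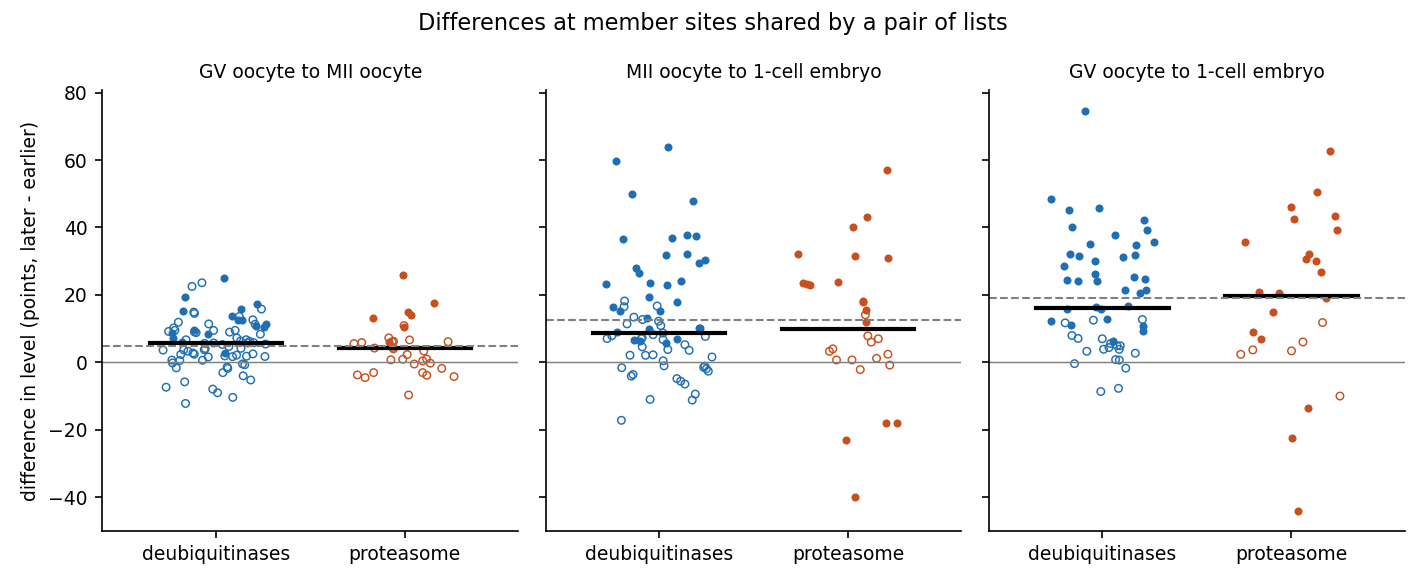
Difference in m5C level in percentage points, later stage minus earlier (y axis), at member sites shared by each pair of libraries, with 1 point per site placed by class. Filled points passed Fisher's exact test (adjusted p under 0.05), black bars are class medians and the dashed line is the median over all shared sites, 19.2 points from GV oocytes to 1-cell embryos, where deubiquitinases had 16.1 and proteasome genes 19.8.

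Among the USP enzymes the largest rise was at exon 60 of Usp34, which encodes a large enzyme known to act on axin in Wnt signalling. Its level was 23.6% of 364 reads in GV oocytes, 34.6% of 243 reads in MII oocytes and 98.3% of 60 reads in the embryo. The embryo stood far above both oocytes, and the difference to GV oocytes was 74.7 points (Fisher's exact test, adjusted p = 4.54e-29). Of the other Usp34 sites listed at every stage, exon 12 had 11.9%, 13.5% and 43.1%, and exon 14 had 25.4%, 21.4% and 29.3%, so that the sites of this mRNA did not move alike. Exon 3 of Usp36 had 52.8%, 67.8% and 98.1% of 159, 121 and 54 reads, and the difference from GV oocytes to the embryo was 45.3 points (Fisher's exact test, adjusted p = 1.25e-10). Exon 14 of Usp10, an enzyme known to stabilize p53, had 52.9%, 66.7% and 90.7% of 227, 207 and 54 reads, 37.9 points higher in the embryo than in GV oocytes (Fisher's exact test, adjusted p = 2.41e-07). At each of these sites over 50 embryo reads were counted, and fewer than 10% of them were converted.

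The 5′ UTR of Usp1, whose enzyme acts on the DNA repair factors FANCD2 and PCNA, had a site at 13% of 54 reads in MII oocytes and 50% of 68 reads in the embryo, 37.0 points higher (Fisher's exact test, adjusted p = 6.82e-05). The GV list did not hold this site. Between the oocytes, the largest calls in the USP family were at Usp27x and Usp2. The Usp27x coding site had 31.6% of 133 reads and 50.8% of 120 reads, 19.3 points apart (Fisher's exact test, adjusted p = 0.0149), and 52.9% of 85 reads in the embryo. Usp27x is closely related to Usp22 and Usp51, and how reads of such copies were divided by the alignment was not tested. Exon 6 of Usp2 had 43.1%, 60.3% and 71.7% of 406, 340 and 53 reads, with 17.2 points between the oocytes (Fisher's exact test, adjusted p = 7.17e-05). At both genes MII oocytes stood nearer to the embryo than to GV oocytes.

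Among deubiquitinase sites listed at every stage, those of Usp3, Usp38 and Usp54 had the highest mean levels. The 5′ UTR site of Usp3, whose enzyme removes ubiquitin from histone H2A, had 95.1% of 285 reads in GV oocytes (exact 95% interval 91.9 to 97.3), 89.8% of 325 reads in MII oocytes (86.0 to 92.9) and 100% of 64 reads in the embryo (94.4 to 100). Exon 1 of Usp38 had 91.7%, 95.5% and 91.4% of 509, 396 and 162 reads, with intervals of 89.0 to 94.0, 92.9 to 97.3 and 85.9 to 95.2. Exon 11 of Usp54 had 74.6%, 89.9% and 100% of 197, 178 and 47 reads. Near-complete levels were thus present before maturation at Usp3 and Usp38, while Usp54 was called higher at each step. The Usp38 mRNA also had a site in exon 1, 67 nt from the start of the coding sequence, at 19.6%, 25.8% and 43.7% of 1076, 947 and 366 reads, and a 5′ UTR site at 53.7%, 66.2% and 85.7% of 587, 568 and 98 reads. Levels of 3 sites within the first exon of 1 mRNA therefore spanned 19.6% to 91.7% in GV oocytes.

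Among deubiquitinase sites listed at every stage, the most deeply covered were in Uchl1, Usp9x and Usp30. Uchl1, an enzyme known for its abundance in neurons and oocytes, had 1 listed site, in exon 9, at 12.0% of 13428 reads in GV oocytes (11.5 to 12.6), 14.9% of 11470 in MII oocytes (14.3 to 15.6) and 21.3% of 2451 in the embryo (19.7 to 23.0). The intervals did not overlap, and each step was called higher (Fisher's exact test, adjusted p = 1.73e-09 between the oocytes and 5.13e-13 from MII oocytes to the embryo). With this depth a rise of 2.90 points passed the test. Exon 29 of Usp9x, an X-linked enzyme needed for early mouse development, had 79.7%, 82.1% and 86.7% of 2500, 876 and 30 reads. Its coverage in the embryo was 0.0120 times the GV value, the lowest ratio of the member sites listed at every stage, while its level passed no test between the stages. Exon 4 of Usp30, a mitochondrial enzyme that opposes mitophagy, stayed near the limit of the lists with 10.2%, 11.9% and 13.5% of 1231, 1141 and 407 reads, and passed no test.

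Usp19 held a 5′ UTR site at 75.3%, 84.9% and 100% of 1087, 960 and 121 reads, called higher at each step. From GV oocytes to the embryo it rose by 24.7 points (Fisher's exact test, adjusted p = 1.27e-13). Usp37, which acts on cyclin A, had a coding site in exon 24 at 70.6%, 75.8% and 82.9% and one in exon 22 at 38.1%, 42.2% and 58.7%. Exon 14 of Usp4 rose from 24.3% and 32.6% in the oocytes to 59.0% in the embryo, and exon 10 of Usp43 rose from 27.1% and 29.5% to 67.3%. Exon 14 of Usp8, an enzyme of endosomal sorting, had 11.9%, 10.2% and 33.3%, the embryo value from 33 reads. Usp5, which takes apart free ubiquitin chains, had 28.5%, 30.3% and 41.2% in exon 10 and passed no test. Exon 11 of Usp4 was the only deubiquitinase site listed at every stage that was lower at each step, with 25.6%, 22.6% and 17%, and it passed no test either.

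In the OTU family Otud5 and Otud1 showed the spread within 1 mRNA. Otud5 had 4 sites listed at every stage, a 5′ UTR site at 59.5%, 69.0% and 85.7% and coding sites at 42.8%, 46.5% and 59.2%, at 34.5%, 25.5% and 38.9%, and at 25.2%, 33.7% and 56.7%. Otud1 had coding sites 429 and 437 nt from the start. The site at 429 had 13.6%, 22.2% and 20.7% of 330, 252 and 111 reads, and that at 437 had 13.5%, 16.8% and 48.6% of 356, 280 and 111 reads. In GV oocytes the neighbours had like levels, and in the embryo the second was 31.9 points above its MII value (Fisher's exact test, adjusted p = 5.55e-09). Exon 1 of Otud3 had 58.2%, 83.3% and 73.9% of 225, 198 and 92 reads, the largest rise of the class between the oocytes at 25.1 points (Fisher's exact test, adjusted p = 5.69e-07). Exon 18 of Otud4 rose from 12.5% and 13% to 60.9%, the last from 23 reads, while its exon 14 had 35.1%, 44.5% and 33.3%.

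**Figure D4:**
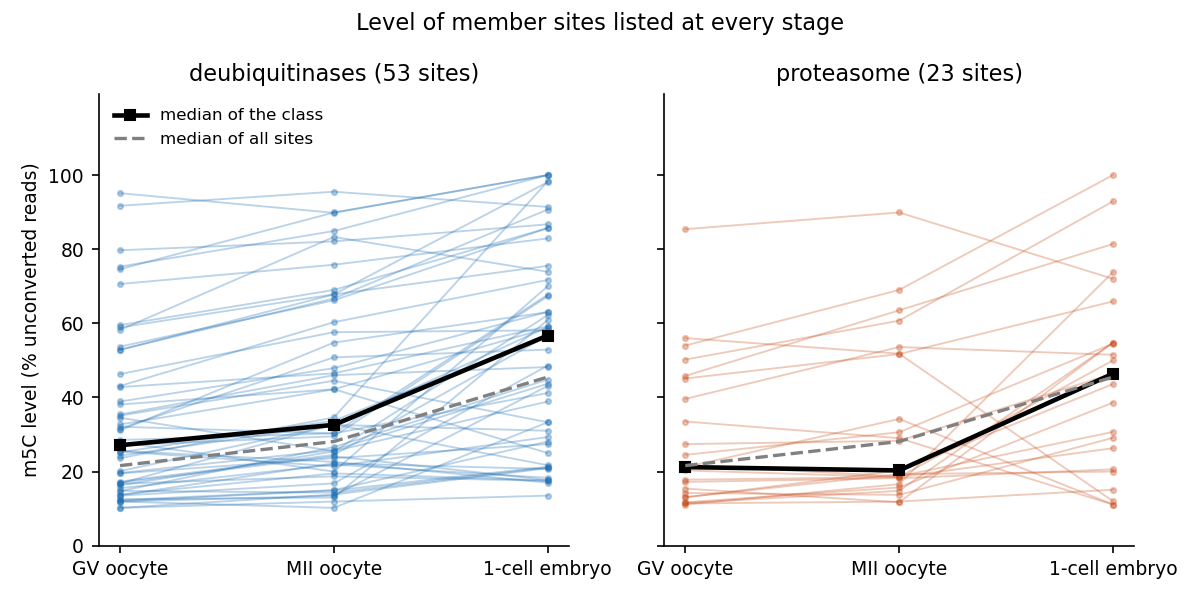
m5C level in percent (y axis) at the 3 stages (x axis) for the 53 deubiquitinase (left) and 23 proteasome sites (right) that every list holds, with 1 thin line per site. The median of the deubiquitinase sites (thick line) went from 27.1% to 32.6% and 56.7%, that of the proteasome sites from 21.2% to 20.3% and 46.4%, and that of all 6145 such sites (dashed) from 21.6% to 28.1% and 45.5%.

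Of the 53 deubiquitinase sites listed at every stage, 34 had a higher level at each step (64.2%), as did 14 of the 23 proteasome sites (60.9%) and 67.4% of all 6145. A lower level at each step was seen at 1 and 2 sites, Usp4, Psmb1 and Psmd3, and at 1.82% of all. The medians of the 53 and 23 sites were 27.1% and 21.2% in GV oocytes, 32.6% and 20.3% in MII oocytes and 56.7% and 46.4% in the embryo. At each stage these medians lay above those of all listed sites of the class. The same held in the whole lists, with 21.6%, 28.1% and 45.5% against 19.5%, 19.8% and 23.8%. Sites listed at every stage had to pass the limits of every list, a selection that favours high levels.

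In the core particle of the proteasome the sites of Psmb1 and Psmb7 went opposite ways. The site of Psmb1, a beta subunit without protease activity, lay in exon 6 and had 56.0% of 1220 reads in GV oocytes (53.1 to 58.8), 51.8% of 711 reads in MII oocytes (48.0 to 55.5) and 12.0% of 50 reads in the embryo (4.53 to 24.3). The embryo lay far below both oocytes, by 44.0 points against GV oocytes (Fisher's exact test, adjusted p = 1.41e-09). This was the largest fall of either class, and the embryo value rests on 50 reads. Exon 1 of Psmb7, the trypsin-like beta subunit, had 45.1%, 51.7% and 65.9% of 193, 203 and 41 reads, higher in the embryo than in GV oocytes by 20.8 points (Fisher's exact test, adjusted p = 0.0263). Among the alpha subunits, Psma5 had 20.3%, 18.5% and 26.3% of 651, 482 and 76 reads, which passed no test. Psma4 had a 3′ UTR site at 48.3% and 59.2% in the oocytes that was not listed in the embryo, where a site in exon 5 had 11.6% of 69 reads. Likewise the 3′ UTR site of Psmb4, at 13.4% and 17.6%, was listed in the oocytes alone.

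The ATPases of the regulatory particle had 22 distinct sites, 12 of them in Psmc4. Exon 3 of Psmc4 had 21.8%, 18.7% and 30.7% of 918, 715 and 137 reads, and the embryo was called higher than MII oocytes by 11.9 points (Fisher's exact test, adjusted p = 0.00636). Exon 9 of Psmc4 rose from 17.8% and 18.5% to 50% and exon 7 from 14.2% and 13.7% to 29.1%, while exon 4, with 11.4%, 11.9% and 15.1%, passed no test. None of the 4 sites was called between the oocytes. In Psmc3 a pair of adjacent C in exon 10 had 15.4% and 11.5% in GV oocytes, 11.7% and 14.8% in MII oocytes, and 54.8% at both in the embryo. The embryo values come from 31 reads at each position, and reads that cover both positions were not told apart. Psmc1 had 17.2%, 18.2% and 20.6% of 569, 538 and 223 reads and passed no test. Psmc5 had a coding site at 41.2% and 43.5% in the oocytes and other positions at 13.3% to 17.2% in the embryo.

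The non-ATPase subunits of the regulatory particle held 35 sites, of which 9, 9 and 34 were listed at the 3 stages. Psmd11, a lid subunit that joins the regulatory particle to the core, had neighbouring exons that moved apart. Its exon 2 site had 50.2%, 60.7% and 92.9% of 406, 435 and 84 reads, 42.6 points higher in the embryo than in GV oocytes (Fisher's exact test, adjusted p = 8.75e-14). Its exon 1 site, 28 nt from the start of the coding sequence, had 21.2%, 34.2% and 11.1% of 312, 298 and 54 reads. That site rose by 13.1 points between the oocytes (Fisher's exact test, adjusted p = 0.00387) and was 23.1 points lower in the embryo than in MII oocytes (Fisher's exact test, adjusted p = 0.00117). The 5′ UTR of Psmd3, another lid subunit, had the same arrangement, with one site at 27.4%, 28.3% and 46.4% of 435, 492 and 153 reads and another, 70 nt upstream, at 33.5%, 29.0% and 11.1% of 167, 200 and 45 reads. The first was called higher in the embryo and the second lower, by 22.4 points against GV oocytes (Fisher's exact test, adjusted p = 0.00506). Within 1 mRNA, opposite calls were thus found in Psmd11, Psmd3 and Psme4.

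Psmd9 and Psmd10 encode chaperones of the assembly of the ATPase ring. The Psmd9 site had 45.8%, 63.5% and 81.4% of 644, 513 and 129 reads, called higher at each step, with 35.6 points from GV oocytes to the embryo (Fisher's exact test, adjusted p = 4.02e-13). It lies in the coding sequence of a short annotated transcript and in the 3′ UTR of the longest coding one. Psmd10 had its Type II site at 39.6%, 53.6% and 51.5% of 338, 235 and 103 reads, higher in the MII than in GV oocytes by 14 points (Fisher's exact test, adjusted p = 0.00927). Psmd7, a lid subunit, had 66.8% and 57.1% in the oocytes and no listed site in the embryo. In the embryo alone, Psmd4, a ubiquitin receptor, had 12.8% of 767 reads and 11.6% of 567 reads, and Psmd6 had 4 sites of 12.1% to 29.2% and Psmd8 3 of 10.3% to 14%.

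Among the activators, the inhibitor and the assembly factors, Psme4 carried the largest rise and one of the falls. Exon 1 of Psme4 had 11.1% of 443 reads in GV oocytes, 16.6% of 349 in MII oocytes and 73.8% of 61 in the embryo, 62.7 points higher in the embryo than in GV oocytes (Fisher's exact test, adjusted p = 3.08e-23). Exon 11 had 54.0%, 69.0% and 100% of 239, 274 and 48 reads and was called higher at each step. Exon 27 had 85.4%, 89.9% and 72.0% of 213, 148 and 82 reads, and the embryo was lower than MII oocytes by 17.9 points (Fisher's exact test, adjusted p = 0.00206). The embryo values of these 3 sites thus lay between 72.0% and 100%, whereas those of GV oocytes ran from 11.1% to 85.4%. Exon 43 rose from 11.7% and 15.7% to 38.6%.

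Psme3, which encodes the nuclear activator PA28 gamma, had a 5′ UTR site at 13.1%, 19.3% and 20.0% of 421, 430 and 255 reads, higher in the embryo than in GV oocytes by 6.94 points (Fisher's exact test, adjusted p = 0.0332). Psmf1, the inhibitor PI31, had a coding site in exon 4 at 24.5%, 30.6% and 54.5% of 1081, 972 and 167 reads, called higher at each step, from MII oocytes to the embryo by 23.9 points (Fisher's exact test, adjusted p = 4.55e-08). Its 3′ UTR site rose from 13% and 20.3% to 43.6%. Psmg3, an assembly chaperone of the core, had a 3′ UTR site at 25% of 72 reads and 50.8% of 59 reads in the oocytes, 25.8 points apart (Fisher's exact test, adjusted p = 0.0214), that was not listed in the embryo. Psmg4, its partner, had 18.5% and 24.3% in exon 3 in the oocytes and 10.5% in exon 1 in the embryo.

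Type II sites made up 6 of 95, 8 of 154 and 4 of 251 deubiquitinase sites in the order of the stages, which is 6.32% (2.35 to 13.2), 5.19% (2.27 to 9.98) and 1.59% (0.436 to 4.03). In the proteasome class it was 1 of 38, 2 of 45 and 4 of 93, or 2.63% (0.0666 to 13.8), 4.44% (0.543 to 15.1) and 4.30% (1.18 to 10.6), and in the whole lists 5.91%, 5.03% and 3.44%. The intervals of the classes overlapped at each stage. The CUCCA site of Usp10 had 35.4%, 46.0% and 48.2% of 491, 402 and 342 reads, called higher from GV to MII oocytes by 10.6 points (Fisher's exact test, adjusted p = 0.0118). The 3′ UTR site of Usp30 had 32.7%, 42.2% and 25% of 382, 308 and 28 reads. Usp47 had 35.9% and 40.6% in exon 14 and 12.3% and 10.9% in exon 20, and Usp37 had 45.5% and 68.0% of only 22 and 25 reads, none of them listed in the embryo. The Psmf1 site had 11.3% and 10.5% in MII oocytes and the embryo.

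Most sites lay in coding sequence, 74.3% (69.4 to 78.9) in the deubiquitinase and 78.9% (70.0 to 86.1) in the proteasome class, against 70.1% of all sites. The 5′ UTR held 14.9% (11.3 to 19.1) and 7.34% (3.22 to 14), against 10.8%, and the 3′ UTR 10.8% (7.71 to 14.6) and 13.8% (7.91 to 21.7), against 17%. High levels in the 5′ UTR were seen in, among others, Usp3, Usp19, Otud5 and Usp38, and in Usp2, where a site had 86.1% of 101 reads in GV and 97.6% of 85 reads in MII oocytes and was not listed in the embryo. In Usp27x, 2 sites of the 5′ UTR had 58.9%, 67.8% and 75.5% and 38.9%, 47.9% and 63.1%. Other 5′ UTR sites had low levels, such as those of Usp22 at 10.6% and Usp24 at 12.5% in GV oocytes. The median of the 16 deubiquitinase 5′ UTR sites of GV oocytes was 35.5% (16.8 to 59.5), beside 20.9% (14.8 to 27.1) for 67 coding sites. These intervals overlapped, and the median of 12 sites in the 3′ UTR was 30.5% (12.4 to 45.5). In the whole GV list the medians were 20.0% in the 5′ UTR and 19.2% in coding sequence. Deubiquitinase 5′ UTR and coding medians were 22.4% and 17.9% in MII oocytes, and 22.3% and 20.7% in the embryo. Within the first 30 nt of the coding sequence lay 5 of 255 deubiquitinase coding sites, 5 of 86 proteasome coding sites and 575 of all 28266, or 1.96%, 5.81% (1.91 to 13) and 2.03%. The 5 of the proteasome class were Psmb7 at 14 nt, Psmd11 at 28 nt, Psma2 at 26 nt, Psmf1 at 12 nt and Psmc3ip at 13 nt. Of these, Psmc3ip matches the class by name alone.

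Of 50 other genes of the pathway, 29 had a site, and they held 78, 94 and 131 sites over the stages. Their median level was 17.7% (14.7 to 21), 18.8% (15.1 to 22.7) and 21.4% (18.8 to 25.5). Of 26 deubiquitinases of other families 13 had a site, among them Bap1, which acts on histone H2A, with 3, 3 and 10 sites and Otub1 with 2, 4 and 5. Of 6 ubiquitin and activating genes 4 had one, and Uba1, the main activating enzyme, held 1, 3 and 7. Of 18 receptor, shuttle and accessory genes 12 had one, with Nfe2l1, a transcription factor of proteasome genes, at 10, 9 and 12 sites and median levels of 14.3%, 21.3% and 33.7%. From GV oocytes to the embryo 29 of 36 shared sites of these genes were called higher (80.6%) and 0 lower, against 66.1% and 1.05% of all shared sites. Their median difference was 14.9 points (10.7 to 22.7), against 19.2 points over all shared sites.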

How the data were processed

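Per the labels and the study's methods, the authors converted RNA with bisulfite, trimmed reads with cutadapt 1.13 and Trimmomatic 0.36, and aligned them to the converted genome with HISAT2 and to the transcriptome with Bowtie2 2.2.9 (GRCm38). The labels name polyadenylated RNA, the methods RNA depleted of ribosomal RNA. The authors deposited, for each called site, the coverage as a read count (C plus T), the m5C level as a fraction (given here in percent) and the p-value of a binomial test, which was used to check the lists and to recover the unconverted rate of each gene. Sequencing depth was not given; the reads at listed sites summed to 4475058, 5285011 and 2616279.

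Unconverted reads were level times coverage, whole to within 2.90e-05. All 40279 sites on chromosomes were C in GRCm38. Regions come from GENCODE M21, in the order CDS, 5′ UTR, 3′ UTR. Fisher's exact test (scipy) compared reads at shared sites, with Benjamini-Hochberg adjustment over all of a pair and a threshold of 0.05, and was tested on simulated data. Intervals are 95%, exact binomial for shares. The members and lists were chosen with earlier results of these data known. Named were genes with a site at 3 stages, the 5 genes with most sites per class, the 3 largest calls each way per pair with at least 50 reads, the 3 sites of highest level and coverage, and Type II sites of 2 stages or more. Genes given with sites at 1 or 2 stages, and the marker genes, were chosen after their values were seen. Alternatives were coverage of 50 and 100 reads, a level of 20%, thinning to 20 reads, reads divided by 5, 1 value per gene, CUCCA alone and the longest coding transcript alone.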

Additional observations from a re-analysis of the deposited data

How the results depend on the processing

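A level of at least 20% left 54, 72 and 132 deubiquitinase and 18, 18 and 44 proteasome sites from GV oocyte to embryo, and raised the medians by construction to 35.9%, 32.7% and 34.2% and to 40.4%, 51.3% and 35%. Thinned to 20 reads, 49.7, 66.7 and 124 deubiquitinase and 16.9, 20.2 and 40.5 proteasome sites were left on average. The embryo kept the most, but only sites already listed were thinned, and 5 unconverted reads were required. A site listed at 20 reads always passes, so the thinning favours the thinly covered embryo list by construction and does not equalize depth. At 50 reads the embryo had 159 deubiquitinase sites, with medians there of 17.1% and 15.1% for the classes, and at 100 reads 72 deubiquitinase and 24 proteasome sites, against 85 and 40 in MII oocytes. Reads divided by 5 left 0 calls in either class between the oocytes, 3 and 1 higher and 0 lower proteasome calls from MII oocytes to the embryo, and 6 and 5 higher and 1 lower from GV oocytes. Among sites of 50 reads in both libraries, 8 and 9 proteasome sites were called higher in the embryo than in MII and GV oocytes, because fewer sites enter. In total 34 of 98 alternatives moved a value beyond its limits and 0 turned the sign of a median difference between stages. The order of stages or classes did turn with coverage. At 50 reads the deubiquitinase median was 18.3% in MII oocytes and 17.1% in the embryo, against 18.5% and 20.7% as deposited, and the median difference from GV oocytes to the embryo was 15.7 points for deubiquitinases and 10.3 for proteasome genes, against 16.1 and 19.8. Leaving out Psmc3ip and Usp6nl, which was chosen after seeing the data, moved none. No paired analysis was possible because each stage has 1 library, and leaving out a replicate was not possible either. In every list a site of 20 reads is listed only from a level of 25% on. Median coverage was lowest in the embryo in both classes, so this limit bears most on the embryo list.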

Other observations

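Most member sites of the embryo were listed in the embryo alone. These were 176 of 251 deubiquitinase sites, 164 of them in genes that an oocyte list also holds, and 60 of 93 proteasome sites, 44 of them in such genes. The shares, 70.1% and 64.5%, lay near the 66.6% of all embryo sites. Their median level was 17.5% and 15.6%, below the 40.0% and 32.5% of embryo sites shared with an oocyte, at median coverages of 59.5 and 80.5 reads against 64.0 and 76.0 reads. Whether these positions were converted or uncovered in the oocytes cannot be read from lists of called sites. In the other direction, 92 deubiquitinase and 16 proteasome sites were listed in an oocyte and not in the embryo, 26.8% and 14.7% of the distinct sites of each class, against 38% of all distinct sites.

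Sites of a class lay near each other in some mRNAs. A neighbour within 10 nt was found for 43 of 343 deubiquitinase sites (12.5%) and 8 of 109 proteasome sites (7.34%), against 10.0% of all sites. Adjacent C did not always have like levels. In exon 14 of Usp10 the listed C had 90.7% of 54 reads in the embryo and the C just before it 29.1% of 55 reads, and only the former was listed in the oocytes, at 52.9% and 66.7%. In Usp36 adjacent C of exon 7 had 17.3% and 14.7% in GV oocytes, 24.5% and 26.6% in MII oocytes and 56.7% and 44.8% in the embryo.

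The unconverted rate of a gene that the deposited p-value implies was a median 0.279%, 0.328% and 0.396% for deubiquitinase genes and 0.292%, 0.544% and 0.253% for proteasome genes over the stages, with a highest value of 1.80%, beside 0.264%, 0.367% and 0.354% for all genes.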
